A study of Homo sapiens with 6 samples.

Results

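Alpha and beta tubulin isotypes were followed in SaOS-2 osteosarcoma cells before and after induction of p21. The isotypes were chosen by name: 10 genes, TUBA1A, TUBA1B, TUBA1C, TUBA4A, TUBB, TUBB2A, TUBB2B, TUBB3, TUBB4B and TUBB6, were looked up among the 23228 gene names of the deposited table, and 9 were found, 4 alpha and 5 beta. TUBB4B was not among the names. The table holds a row named TUBB2C, an older symbol that RefSeq gives to TUBB4B and to no other gene, and this row is described beside the 9 isotypes and kept out of their counts unless it is named.

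The cells carried a Tet-inducible p21 vector and were either untreated (p21 OFF, 3 libraries) or given 1 μg/ml doxycycline for 24 h (p21 ON, 3 libraries). Both groups carry the vector, and SaOS-2 cells lack functional RB and p53. Cells lacking the vector but given doxycycline were not analysed here, and what the drug does by itself cannot be told apart from what p21 does. The comparison asks how induction of p21, which can arrest the cycle of these cells, moved the transcripts of the tubulin genes.

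Microtubules are hollow polymers of paired alpha- and beta-tubulin, and they form the mitotic spindle and the tracks of intracellular transport. Vertebrates encode each subunit in several genes, the isotypes, whose proteins differ mostly in their acidic carboxy-terminal tails. Cells also adjust their tubulin mRNAs to the pool of free subunits, because translating ribosomes that meet an excess of soluble tubulin trigger decay of the message.

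The libraries held 12795490, 20914151 and 21975045 reads on genes with p21 OFF and 13440402, 12918390 and 16630552 with p21 ON. CDKN1A, the gene of p21, had between 1187 and 1355 normalized counts in the p21 OFF libraries and between 40470.4 and 46739 in the p21 ON libraries, a log2 fold change of 5.11. Normalized counts are read counts divided by the size factor of the library, so they describe a gene relative to the other genes and not per cell. Of 8 markers of the osteoblast lineage, ALPL ranged from 35363 to 38901 normalized counts, RUNX2 from 3028 to 3746, and SP7, SPARC and COL1A1 were likewise well above the filter, while COL1A2 had at most 4.87 and SPP1 at most 2.96. The remaining marker, IBSP, was called lower with p21 ON, with a log2 fold change of -0.38 (limma adjusted p = 0.0264), a call lost in 7 alternatives, DESeq2 among them. The summed markers of osteoblasts, epithelial cells and leukocytes overlapped between the conditions. Those of neurons ran from 108 to 129 with p21 OFF and from 157 to 169 with p21 ON, and those of endothelial cells from 62.8 to 69.1 and from 73.1 to 105. Each of these sums was mostly 1 gene. MAP2 ran from 89.2 to 106 with p21 OFF and from 133 to 137 with p21 ON, and VWF from 51.5 to 55.5 and from 62.1 to 90.3. Only 2 of the 6 neuronal and 2 of the 3 endothelial markers passed the filter. Of 6 neuronal markers MAP2 was called higher (not without p21 ON replicate 3, limma adjusted p = 0.0513), ELAVL4 was listed at 0 in every library and RBFOX3 had at most 2.85 normalized counts. Of 3 endothelial markers VWF was called higher, a call lost in 7 alternatives with adjusted p-values up to 0.162 (DESeq2, no filter, the length trend, and leaving out p21 OFF replicate 2 or 3 or p21 ON replicate 1 or 3), and CDH5 had at most 1.26. The part of these markers in the results was not tested.

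Because the coding parts of these genes are close copies, reads of one isotype can match another. Of the 51-base windows of the canonical transcripts (51 cycles were read), 100% were found nowhere else in the GRCh37 genome for TUBA4A, 99.0% for TUBB6, 91.1% for TUBB3, 89.2% for TUBB4B, 77.3% for TUBB and 74.8% for TUBA1C. The share was 54.5% for TUBA1A, 46.1% for TUBB2B, 41.1% for TUBA1B and 37.7% for TUBB2A. TUBA1A and TUBA1B had 570 windows in common, TUBA1B and TUBA1C 553, TUBA1A and TUBA1C 424, and TUBB2A and TUBB2B 913, while 409 windows of TUBB also lie in the pseudogene TUBBP1. Windows across a splice junction that recur only in another spliced transcript are not counted as shared. How reads with several matches were counted is not given in the sources used here, so values of the isotypes with many shared windows are uncertain as to which copy the reads came from. Exons of TUBA1A and TUBA1C overlap each other on opposite strands over 104 bases, and TUBA1C also overlaps a lncRNA on the opposite strand over up to 637 bases. TUBA1B, TUBB and TUBB4B overlap genes on the opposite strand as well (the antisense gene TUBA1B-AS1, another lncRNA and FAM166A). Reads from such overlaps can be told apart only if the counting used the strand.

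With p21 ON, 8 of the 9 isotypes were lower and none was higher, by limma on log2(normalized count + 1) with a Benjamini-Hochberg adjusted p-value under 0.05 over 13255 genes. Of all genes tested, 12.7% were called lower and 10.5% higher, and scaling by library size alone turned the 1681 lower and 1393 higher genes into 1194 lower and 2034 higher. The median log2 fold change of the 9 isotypes was -0.40, against 0.0056 over all genes tested. With TUBB2C counted as well, 9 of 10 were lower and the median was -0.47. In 8 isotypes the highest p21 ON library was under the lowest p21 OFF library, as in 21.3% of the genes tested (19.1% were arranged the other way). The same 8 isotypes and TUBB2C were called lower by edgeR and by DESeq2 on the recovered reads, where 12.4% and 10.6% of all genes were lower and 10.6% and 8.39% higher. Lower counts in bulk RNA can come from fewer cells that express a gene or from less of its RNA per cell, which cannot be told apart. The methods of the study speak of biological replicates, and the labels do not say what separated the 3 libraries of a group. The limma p-values set the difference between the groups against the spread between these libraries, with a variance that is moderated over all genes tested. An exact two-sided permutation test of 3 against 3 libraries could give no p-value below 0.1.

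**Figure D1:**
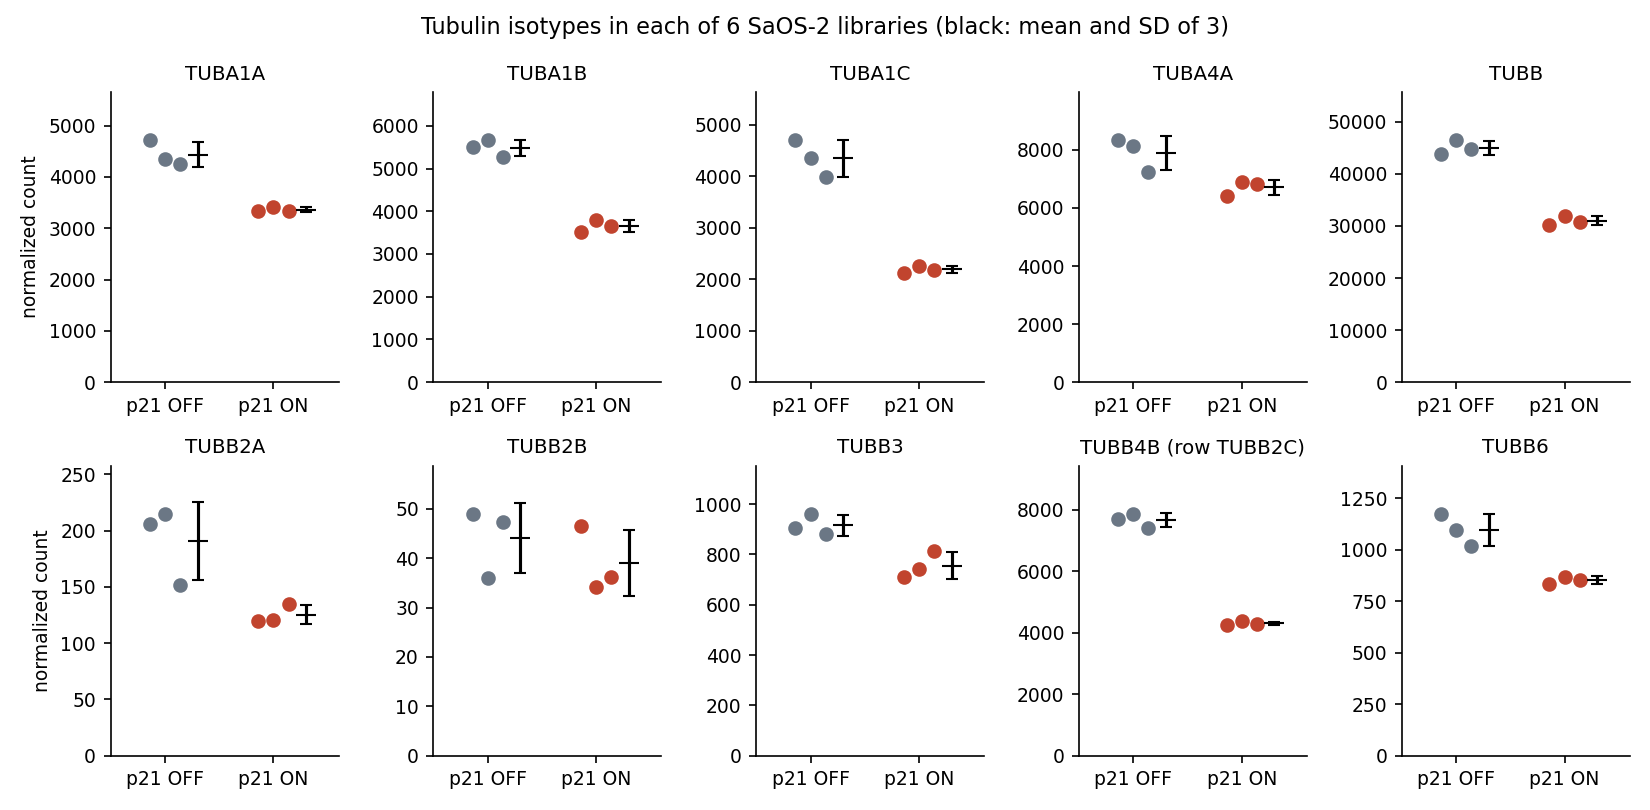
Normalized counts of each isotype in the 3 p21 OFF (grey) and 3 p21 ON (red) libraries, with a vertical axis from 0 in every panel and the mean and SD of each group in black. The p21 ON points sit below the p21 OFF points in all panels except TUBB2B, where the groups overlap.

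TUBA1C, a widely expressed alpha-tubulin, had the largest change of the isotypes. The gene is at 49582519 to 49668383 of chromosome 12 in GRCh37, on the plus strand. With p21 OFF its normalized counts were 4701, 4359.5 and 3989.97, and with p21 ON 2129, 2260.2 and 2182. The lowest p21 OFF library was far above the highest p21 ON library. The means were 4350.1 ± 356 and 2190.4 ± 65.9 (SD, n = 3 each), so the p21 ON level was 50.4% of the p21 OFF level. The log2 fold change was -0.99 (standard error 0.07, limma adjusted p = 2.19e-09). Among the fold changes of all genes tested, this lay at percentile 1.19.

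TUBA1B, the alpha isotype of most dividing cells, lies on chromosome 12 from 49521565 to 49525180 on the minus strand. It had 5502, 5659 and 5276 normalized counts with p21 OFF and 3520.4, 3806 and 3658 with p21 ON. The groups were well apart, and the log2 fold change was -0.58 (standard error 0.06, limma adjusted p = 8.37e-07). TUBA1A, known as the main alpha isotype of developing neurons, lies between it and TUBA1C, from 49578469 to 49582863 on the minus strand. It had 4712, 4348 and 4246 normalized counts with p21 OFF and 3336, 3414 and 3338 with p21 ON, and the p21 ON libraries were all lower and close to each other. Its log2 fold change was -0.40 (standard error 0.06, limma adjusted p = 1.08e-04).

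TUBA4A is set apart from TUBA1A, TUBA1B and TUBA1C by encoding no tyrosine at the end of its tail. It lies on chromosome 2 from 220114432 to 220142624 on the minus strand, and its exons overlap those of the opposite gene STK16. The normalized counts were 8328, 8129 and 7223 with p21 OFF and 6405, 6895 and 6813 with p21 ON, so the lowest p21 OFF and the highest p21 ON library were close. The log2 fold change was -0.23 (standard error 0.06, limma adjusted p = 0.0144), the smallest among the isotypes called. Leaving out p21 OFF replicate 2 gave an adjusted p of 0.0548 by limma and leaving out p21 ON replicate 1 gave 0.0995, and neither passed the threshold.

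TUBB, the class I beta-tubulin of nearly all cells, had the highest level per kb of the isotypes. It lies on chromosome 6 from 30685212 to 30693315 on the plus strand. Its normalized counts were 43897, 46442 and 44692 with p21 OFF and 30198, 31945 and 30835 with p21 ON. Without overlap between the groups, the level with p21 ON was 68.9% of that with p21 OFF, and the log2 fold change came to -0.54 (standard error 0.06, limma adjusted p = 5.17e-06).

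The row TUBB2C, the older name of the class IVb isotype TUBB4B, had 7676, 7859 and 7407 normalized counts with p21 OFF and 4263, 4362 and 4273 with p21 ON. TUBB4B is a broadly expressed beta-tubulin that is also abundant in ciliated cells, on chromosome 9 from 140135739 to 140138159 on the plus strand. The p21 ON libraries were tightly grouped at 56.2% of the p21 OFF mean. The log2 fold change was -0.83 (standard error 0.06, limma adjusted p = 2.79e-09), next in size after TUBA1C.

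TUBB6, the class V isotype, lies on chromosome 18 from 12307668 to 12344319 on the plus strand and had 1174, 1093.6 and 1017 normalized counts with p21 OFF and 832, 869 and 854 with p21 ON. Every p21 ON library was below every p21 OFF library, with a log2 fold change of -0.36 (standard error 0.07, limma adjusted p = 0.00134). TUBB3, the class III isotype used as a marker of neurons, lies on chromosome 16 from 89987800 to 90005169, in plus orientation. It had 904, 962 and 880.3 normalized counts with p21 OFF and 710.1, 742 and 814 with p21 ON. Its groups were apart by less than their own ranges, and the log2 fold change was -0.28 (standard error 0.07, limma adjusted p = 0.0105). Leaving out p21 OFF replicate 2 or p21 ON replicate 1 took the limma adjusted p of TUBB3 to 0.0517 and 0.0779, past the threshold. Part of TUBB3 also shares exons on the same strand with another annotated protein-coding gene, over up to 1364 bases.

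The class II pair, TUBB2A and TUBB2B, had the lowest levels per kb. TUBB2A, on chromosome 6 from 3153731 to 3157778 on the minus strand, had 206, 215 and 152 normalized counts with p21 OFF and 119.9, 121 and 135 with p21 ON. Its lowest p21 OFF library stood nearer to the p21 ON libraries than to the other two, and the log2 fold change was -0.59 (standard error 0.13, limma adjusted p = 0.00364). TUBB2B, which is expressed mainly in the nervous system, lies beside it from 3223558 to 3231964 and rested on 28 to 64 reads a library. It had 49.0, 35.9 and 47.3 normalized counts with p21 OFF and 46.6, 34.1 and 36.1 with p21 ON, and the groups overlapped. A difference was not detectable at this depth, with a log2 fold change of -0.17 and a 95% interval from -0.59 to 0.24 (limma adjusted p = 0.551).

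**Figure D2:**
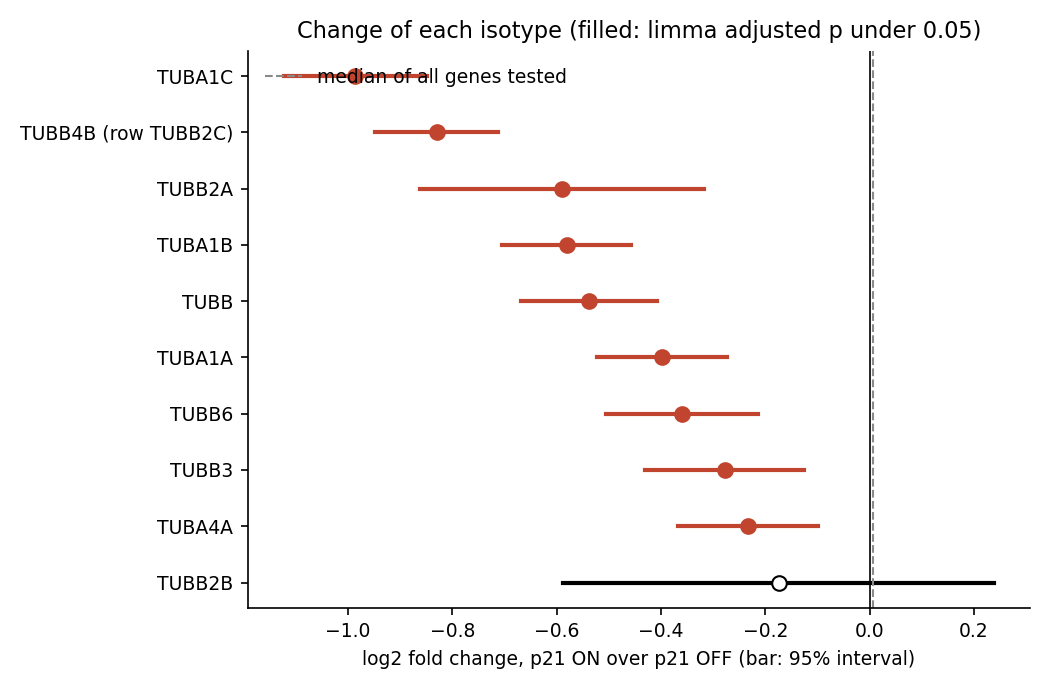
Log2 fold change of each isotype with its 95% interval, where filled points passed the limma threshold and the dashed line is the median of all genes tested. TUBA1C at -0.99 and TUBB4B at -0.83 lie lowest, and only the interval of TUBB2B reaches past 0.

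Summed over the family, the alpha isotypes had 23243, 22494 and 20736 normalized counts with p21 OFF and 15391, 16376 and 15992 with p21 ON, a mean of 71.8% of the p21 OFF level. The 5 beta isotypes had 46231, 48748 and 46788 with p21 OFF and 31907, 33711 and 32675 with p21 ON, or 69.3%. Both sums were lower in every p21 ON library. The 9 isotypes took 0.428% ± 0.0108 of all reads on genes with p21 OFF and 0.309% ± 0.00807 with p21 ON (SD, n = 3 each). TUBB made most of the beta sum, so that sum is close to the level of 1 gene.

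The balance between the families was read per length, since the genes differ in size. Per kb of exon (all annotated exons of a gene merged), the ratio of summed beta to summed alpha was 1.99 ± 0.124 with p21 OFF and 1.90 ± 0.0153 with p21 ON (SD, n = 3 each). Libraries with p21 OFF ran from 1.86 to 2.10 and those with p21 ON from 1.88 to 1.91, so the groups overlapped. With the length taken as the number of unique 51-base windows, the ratio was 1.29 ± 0.0665 and 1.26 ± 0.00521 (SD, n = 3 each), also with overlap. The ratio leaves out TUBB4B, whose row TUBB2C stood at 3754 per kb of exon with p21 OFF and 2111 with p21 ON. That row fell to 56.2% of its p21 OFF mean, further than the summed 5 beta isotypes at 69.3%. The overlap therefore describes these 5 beta isotypes only and is no result about the whole beta family. Summed as normalized counts without a length, the 5 beta isotypes and TUBB2C stood at 67.5% of their p21 OFF mean. The alpha isotypes stood at 71.8%. The overlap need not hold with TUBB2C counted, and the ratio per kb with that row was not computed.

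Shares within the alpha family were compared in the same way. TUBA1C made 16.8% ± 0.478 of the 4 isotypes per kb with p21 OFF and 11.7% ± 0.0898 with p21 ON, while TUBA4A made 36.7% ± 0.717 and 43.1% ± 0.493 (SD, n = 3 each). The share of TUBA1B went from 26.4% ± 0.982 to 24.3% ± 0.223 and that of TUBA1A was 0.911 percentage points higher with p21 ON, or 0.555 without p21 OFF replicate 2. None of the 4 shares overlapped between the groups, and no test was run on them. The levels depended on the length used. Per unique 51-base window, TUBA1B held the largest share, 43.3% ± 1.23 with p21 OFF and 40.7% ± 0.367 with p21 ON, and TUBA4A held 20.2% ± 0.574 and 24.2% ± 0.354 (SD, n = 3 each). TUBA1A then held 25.7% ± 0.790 and 27.4% ± 0.558, and TUBA1C 10.7% ± 0.407 and 7.62% ± 0.0344 (SD, n = 3 each). The direction of each share was the same under both lengths, and the groups did not overlap. For TUBA1C and TUBA4A, with the largest and smallest falls of the 4, that direction was fixed in advance, since a length scales every library alike.

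Ratios between pairs of isotypes need no length. TUBA1C to TUBA1A was 0.998, 1.00 and 0.940 with p21 OFF and 0.638, 0.662 and 0.654 with p21 ON. TUBA1C to TUBA1B was 0.854, 0.770 and 0.756 with p21 OFF and 0.605, 0.594 and 0.596 with p21 ON. Both ratios were lower in all p21 ON libraries, and so was TUBA1B to TUBA4A, at 0.696 ± 0.0349 and 0.546 ± 0.00810 (SD, n = 3 each). TUBA1A to TUBA1B moved the other way, from 0.810 ± 0.0442 to 0.919 ± 0.0260 (SD, n = 3 each). TUBA1A, TUBA1B and TUBA1C share windows with each other, and TUBA4A shares none.

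**Figure D3:**
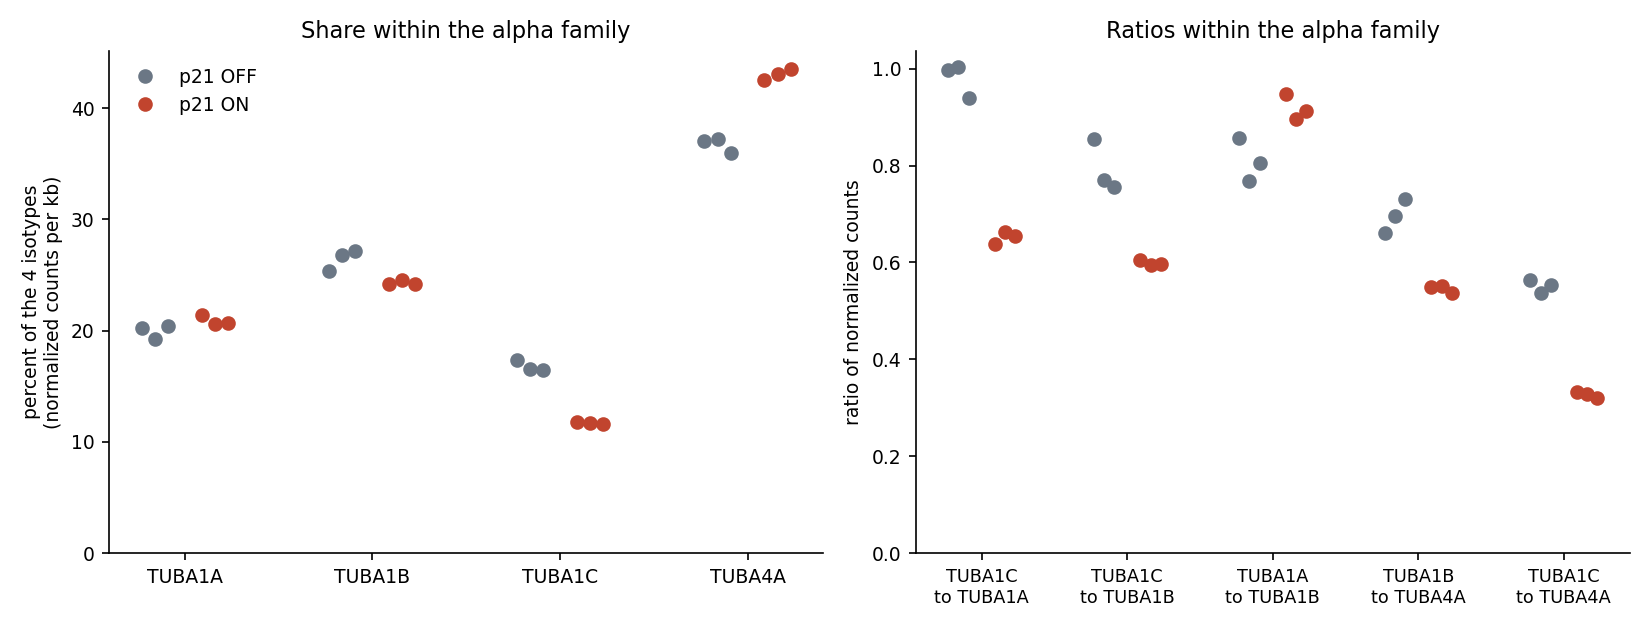
Left, share of each alpha isotype in the family per kb of exon in percent; right, ratios of normalized counts between pairs of alpha isotypes; each point is 1 library, p21 OFF in grey and p21 ON in red. The share of TUBA1C is near 16.8% with p21 OFF and near 11.7% with p21 ON, and TUBA4A is higher with p21 ON at 43.1%.

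In the beta family TUBB held 95.9% ± 0.299 of the 5 isotypes per kb with p21 OFF and 95.4% ± 0.147 with p21 ON. The row TUBB2C is left out of this share. It stood at 3754 per kb with p21 OFF and 2111 with p21 ON, against 11056 and 7613 for TUBB. TUBB2C fell to 56.2% of its p21 OFF mean and TUBB to 68.9%. The share of TUBB and its direction therefore hold for these 5 isotypes only. With TUBB2C counted the share of TUBB is smaller and need not fall, and it was not computed. TUBB2C to TUBB was 0.175, 0.169 and 0.166 with p21 OFF and 0.141, 0.137 and 0.139 with p21 ON, lower in all p21 ON libraries. TUBB3 to TUBB was 0.0206, 0.0207 and 0.0197 with p21 OFF and 0.0235, 0.0232 and 0.0264 with p21 ON, higher in all p21 ON libraries. TUBB6 to TUBB was also higher, at 0.0244 ± 0.00211 and 0.0275 ± 2.63e-04 (SD, n = 3 each). For TUBB2A to TUBB the groups overlapped.

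Ordered by normalized counts per kb of merged exon, the isotypes ran TUBB, TUBB4B, TUBA4A, TUBA1B, TUBA1A, TUBA1C, TUBB6, TUBB3, TUBB2A and TUBB2B in both conditions. TUBB stood at 11056 with p21 OFF and 7613 with p21 ON, and TUBB2B at 10.6 and 9.36. The ranges of neighbours did not overlap in either condition. With the length of the canonical transcript instead, TUBA4A at 3272 was above TUBB4B at 2751 with p21 ON, the ranges of TUBB6 and TUBB3 overlapped in both conditions, and the rest of the order was the same. Per unique window the alpha isotypes ran TUBA1B, TUBA1A, TUBA4A and TUBA1C in both conditions, so the place of TUBA4A in the order rests on the length chosen.

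The promoters of TUBA1C and TUBB4B, the isotypes with the largest changes, are shown beside those of TUBB and TUBA4A. A cell cycle homology region (CHR) is an element through which MuvB complexes bind the promoters of many cell cycle genes, often with CCAAT boxes nearby. RefSeq windows of GRCh38.p14 from 250 bases before to 50 after the canonical start were searched on both strands in all 10 isotypes. TTTGAA, the commoner CHR, was in the windows of TUBA1C and TUBB4B only, and TTTAAA was in none. Either form was thus in 2 of the 10 isotypes, near the 24.0% of all promoter windows that hold either form. Of 35116 promoter windows, 15.2% hold TTTGAA and 12.2% hold TTTAAA, and 2.27% hold TTTGAA in 2 or more copies, as that of TUBA1C does. Positions count from the first transcribed base, with -1 just before it, and capitals mark CHR and CCAAT matches in the 250 bases before the start. For TUBA1C these are chr12:49264832-49265081 (plus strand), for TUBB4B chr9:137241037-137241286 (plus strand), for TUBB chr6:30720102-30720351 (plus strand) and for TUBA4A chr2:219253919-219254168 (minus strand).
TUBA1C: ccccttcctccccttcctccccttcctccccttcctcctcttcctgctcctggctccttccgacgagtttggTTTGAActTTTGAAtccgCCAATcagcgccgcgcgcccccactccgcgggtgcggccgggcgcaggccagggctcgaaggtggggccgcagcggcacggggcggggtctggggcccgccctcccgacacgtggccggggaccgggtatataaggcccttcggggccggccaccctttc
TUBB4B: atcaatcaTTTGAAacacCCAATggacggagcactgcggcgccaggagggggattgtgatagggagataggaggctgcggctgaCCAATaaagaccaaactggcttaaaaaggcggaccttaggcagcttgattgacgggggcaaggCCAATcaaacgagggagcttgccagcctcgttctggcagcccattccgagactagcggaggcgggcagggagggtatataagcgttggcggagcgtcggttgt
TUBB: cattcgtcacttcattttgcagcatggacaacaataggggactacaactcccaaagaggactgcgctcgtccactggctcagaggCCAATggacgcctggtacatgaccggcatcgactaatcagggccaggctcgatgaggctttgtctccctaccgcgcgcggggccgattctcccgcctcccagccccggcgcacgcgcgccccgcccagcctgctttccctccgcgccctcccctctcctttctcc
TUBA4A: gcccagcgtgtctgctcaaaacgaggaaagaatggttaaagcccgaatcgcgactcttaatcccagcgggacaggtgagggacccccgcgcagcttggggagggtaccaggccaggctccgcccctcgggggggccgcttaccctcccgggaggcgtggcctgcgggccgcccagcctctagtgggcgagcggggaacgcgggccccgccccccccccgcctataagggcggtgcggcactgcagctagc

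In TUBA1C the CHR matches were at -178 to -173 and -170 to -165, with a CCAAT box at -160 to -156. TUBB4B had TTTGAA at -242 to -237 and 3 CCAAT boxes, at -232 to -228, -166 to -162 and -103 to -99; 3.26% of all windows hold 3 or more. Windows at the canonical start of 7 isotypes held a CCAAT, against 34.6% of all windows, and TUBA4A held neither element. An E2F match was any of the letters TTCCCGC, the variant with TTGGCGC, the variant with TTGCCGC and the variant with TTCGCGC. At the canonical start 1 was found each for TUBB2B and TUBB6, against 4553 of all 35116 windows, and TATAAA for TUBB2A, against 11.5%. The set of all windows also includes starts that are not canonical. A further window of TUBB, with its start 1286 bases past the canonical start, held an E2F match on the minus strand at -95 to -89. These are matches of letters in a window, not binding sites, and say nothing of which factor binds. TUBB and TUBA1C stand in the lower-stringency list of G2/M genes used in the study, and TUBB6 in its list of direct p53 targets.

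The genes nearest in pattern were sought among those with a mean of at least 100 normalized counts. Genes with names starting with TUB, which include all tubulins, were left out of this search. The 5 whose centred log2 values over the 6 libraries were nearest to those of TUBA1C were CDKN3, KPNA2, MLF1IP, VRK1 and PPIH. Their root mean square differences ran from 0.0505 to 0.0612, where the median of 10422 genes was 0.496, and their log2 fold changes from -0.99 to -1.07. Nearest to the sum of the 9 isotypes were NUP93, HAUS7, MCOLN1, RAD21 and MRTO4, with differences of 0.0277 to 0.0464 against a median of 0.264. These distances follow mostly from the difference between the groups, so a gene that did not change lies far off by construction. The medians therefore show no likeness beyond a similar fold change.

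The other tubulin genes moved in both directions. Of 12 in the table, 7 passed the filter, 3 were lower, 1 was higher and 3 were neither, with a median log2 fold change of -0.09, beside 12.7% lower and 10.5% higher over all genes. TUBD1, which encodes the delta-tubulin of centrioles, had 332, 280.4 and 251 normalized counts with p21 OFF and 162, 155 and 165 with p21 ON, a log2 fold change of -0.83 (limma adjusted p = 2.48e-05). The beta gene TUBB1 of platelets, at 29.7 to 38.9 and 16.3 to 23.2 normalized counts, changed by -0.80, and the alpha gene TUBA8, at 61.7 to 69.1 and 34.1 to 51.2, by -0.59. The gamma-tubulin gene TUBG2 rose by 0.28, from 415 to 460 in p21 OFF libraries to 498 to 557 in p21 ON libraries. TUBG1, TUBE1 and TUBB4, the row of TUBB4A, did not pass the test. The call of TUBG2 was lost on leaving out p21 ON replicate 1 or 3 or p21 OFF replicate 2 or 3 (limma adjusted p up to 0.0864), that of TUBB1 without p21 ON replicate 1 or 3 or p21 OFF replicate 1 and in DESeq2 (up to 0.0835), and that of TUBA8 without p21 ON replicate 2 or 3 and in DESeq2 (up to 0.0947).

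The gamma-tubulin ring complex, which nucleates microtubules, was split as well: of 9 genes tested, 3 were lower, 1 was higher and 5 were neither, beside 12.7% lower and 10.5% higher over all genes. MZT1, which encodes a small protein of the complex, had 505, 466 and 419 normalized counts with p21 OFF and 303, 324 and 251 with p21 ON, a log2 fold change of -0.67 (limma adjusted p = 1.32e-04). MZT2B changed by -0.33 and NEDD1, the targeting factor, by -0.24, while TUBGCP6 rose by 0.24. Of these calls, that of MZT1 held in every alternative. Those of TUBGCP6 and NEDD1 were lost without p21 ON replicate 1 or 3 or p21 OFF replicate 2, and that of MZT2B without p21 ON replicate 1 or 2, with limma adjusted p-values up to 0.109, and NEDD1 was also lost under scaling by library size.

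Folding of tubulin needs prefoldin, which passes the nascent chain on, and the cofactors TBCA to TBCE, which join alpha to beta. The list of 13 genes holds these and also TBCEL and ARL2. Of the 13 genes 9 were called lower, 4 did not pass the test and none was called higher. The median log2 fold change was -0.25, and 12.7% of all genes tested were lower. ARL2 was among the 9 (limma adjusted p = 0.0496) and lost its call in 11 alternatives. PFDN5 had 2562, 2099.7 and 2107 normalized counts with p21 OFF and 1683, 1889.8 and 1821 with p21 ON (log2 fold change -0.32, limma adjusted p = 0.00584). TBCB had 1724, 1473 and 1426 and then 1234, 1250.1 and 1287 (-0.29, limma adjusted p = 0.00818), and PFDN1 had 632, 586 and 592 and then 501, 489.8 and 489 (-0.29, limma adjusted p = 0.00830). The changes were small, and the calls depended on the libraries: without p21 ON replicate 1, 2 genes were lower, without p21 ON replicate 3, 5, and with library size scaling or a length trend taken out, 5. PFDN1 and TBCB kept their calls in every alternative, and PFDN5 lost its call without p21 ON replicate 1 (limma adjusted p = 0.0515).

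Genes of the decay of tubulin mRNA on ribosomes did not pass the test. TTC5, which reads the nascent tubulin, had 281 to 369 normalized counts with p21 OFF and 308 to 324 with p21 ON. For its partner SCAPER the libraries ran from 196 to 261 and from 268 to 319, with a log2 fold change of 0.26 (limma adjusted p = 0.101). For C2orf29, the row of the decay factor CNOT11, the log2 fold change was -0.08 (limma adjusted p = 0.353). Without p21 OFF replicate 3, 1 of these 3 genes was called higher.

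Another group of genes encodes enzymes that add or remove marks on tubulin, mostly on its tails. Of 26 such genes, 19 were tested, and none was lower, 4 were higher and 15 were neither, and 10.5% of all genes tested were higher. VASH1, a carboxypeptidase that removes the tail's tyrosine, had 189.6, 183 and 191 normalized counts with p21 OFF and 283, 264 and 287 with p21 ON. Its log2 fold change was 0.56 (limma adjusted p = 2.83e-04). The glutamylases TTLL5 and TTLL7 each rose by 0.31 (limma adjusted p = 0.00285 and 0.00712). KIAA0895L, the gene of the detyrosinase MATCAP, had a log2 fold change of 0.26 and lost its call without p21 ON replicate 1 or 3 (limma adjusted p up to 0.0967). The tyrosine ligase TTL, the acetyltransferase ATAT1 and the deacetylases HDAC6 and SIRT2 did not pass the test.

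STMN1, which binds free tubulin dimers and promotes depolymerization, was the 1 of 4 stathmin genes with enough counts. It had 6397, 5677 and 5364 normalized counts with p21 OFF and 3892, 4071 and 3823 with p21 ON. Every p21 ON library lay below, with a log2 fold change of -0.56 (limma adjusted p = 7.27e-06).

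**Figure D4:**
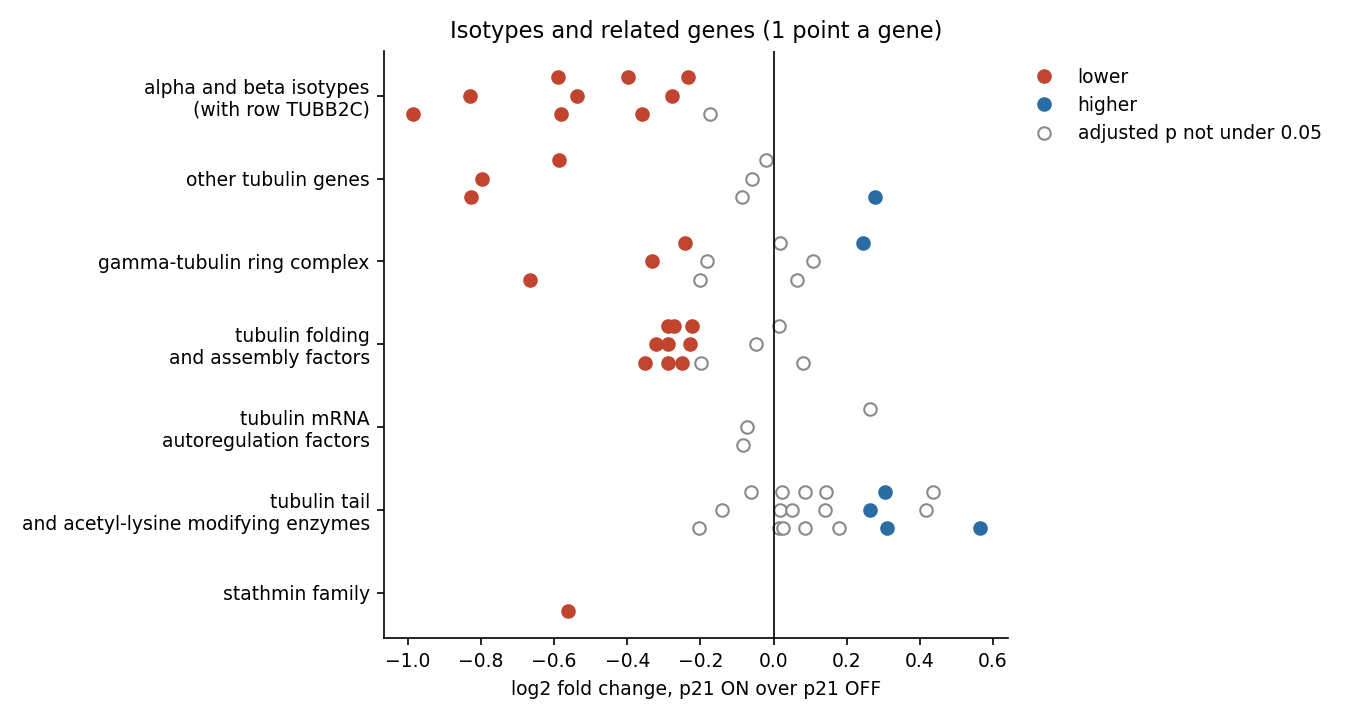
Log2 fold change of each tested gene in the isotypes and in the related gene groups, filled where limma passed the threshold (red lower, blue higher) and open otherwise; vertical offsets only separate points. The isotypes and the folding factors lie mostly below 0, and the modifying enzymes have only blue or open points.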

How the data were processed

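RNA was sequenced by the authors from SaOS-2 cells with stranded libraries, mapped to hg19 with STAR and counted on genes with HTSeq; versions, strand setting and treatment of reads with several matches are not given in the sources used here. The deposited table holds the counts divided by DESeq2 size factors, a signal of 0 or more. The reads were recovered from the step between values, and 100% of values came out whole (within 0.1 read). The 10 genes with the most reads held 3.70 to 3.91% of a library, and replicates differed by more than sampling noise. Between p21 OFF replicate 1 and replicates 2 and 3 the chi-square per gene was 8.50 and 9.26, and between the other replicate pairs 2.71 to 3.98.

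The main test was limma 3.58.1 (lmFit, eBayes with a trend) in R 4.3.3 on log2(normalized count + 1), a scale that understates the change of low genes, with no covariates, for 13255 genes (mean of 10 or more), with Benjamini-Hochberg adjustment and a threshold of 0.05. Alternatives were edgeR 4.0.16 and DESeq2 1.42.0 on the recovered reads, library size and TMM scaling, pseudocounts of 0.1 and 10, no filter, a replicate block, each library left out, and, chosen after seeing the data, a length trend taken out and TUBB2C counted as an isotype. Positions and exon lengths are from GENCODE release 44 lifted to GRCh37, and promoters from RefSeq.

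The isotypes and gene lists were chosen with earlier results of these data known. Genes named are the isotypes, CDKN1A, up to 3 genes with the lowest adjusted p in each direction of each list, and the 5 nearest genes. KIAA0895L, the list members that did not pass the test and the markers were named after their values were seen. The planned protein sequences are not used here.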

Additional observations from a re-analysis of the deposited data

How the results depend on the processing

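Of the 9 isotypes, none changed direction in the 9 alternatives with all libraries or with a library left out, and the only calls lost were those of TUBA4A and TUBB3, on leaving out p21 ON replicate 1 or else p21 OFF replicate 2. The number of isotypes called lower was 6 in those 2 fits and 8 in every other, and 9 with TUBB2C counted. Over all genes, 692 to 1488 were called higher and 888 to 1662 lower with a library left out. Among the lists, other tubulin genes ranged from 0 to 1 higher and from 1 to 3 lower, ring complex genes from 0 to 1 higher and from 1 to 4 lower, folding factors from 2 to 8 lower, and autoregulation factors from 0 to 1 higher. With all libraries, 2 other tubulin genes were called higher without the filter on low values and 1 was called lower in DESeq2, and 5 folding factors were called lower with library size scaling and with a length trend taken out; the cause was not tested. The summed beta isotypes differed by -13272 normalized counts with library size scaling, against -14491. Same-numbered libraries of the groups showed no shared deviation, with correlations of -0.057, -0.025 and -0.048. Such values cannot tell whether these libraries were handled in pairs. A fit with the replicate block called 1407 genes higher and 1513 lower, and 8 isotypes lower. With lengths of unique windows the difference in the share of TUBA1C was -3.12 percentage points that of TUBA4A 3.97 and that of TUBA1A 1.74, against -5.13, 6.32 and 0.911. A length was known for 86% of the genes tested. TUBB2B rested on 28 to 64 reads a library.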
